A study of Brassica napus with 17 samples.

Results

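In heat-stressed microspore cultures of Brassica napus (oilseed rape), 61 genes had less RNA with trichostatin A (TSA) than without it at day 2, and more RNA with it at day 4. They were chosen on the authors' log2 CPM values, the log2 of a scaled count with a small amount added. A member needs a mean of at least 3 log2 CPM in at least 1 of the 6 sample groups. Its mean with TSA must also lie at least 0.8 log2 units below heat alone at day 2, and at least 0.8 above it at day 4. Of the 34482 genes that reached the minimum level, 61 met both conditions, or 0.177%. The opposite order, higher with TSA at day 2 and lower at day 4, was met by 138 genes, while 8461 were lower on both days and 9042 higher on both. Since the day 2 and day 4 levels chose the members, comparisons of those cultures are given as a description and no test of them is read.

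All libraries came from 1 doubled haploid genotype, DH12075, with a LEC1-GFP reporter, and all cultures started from late unicellular microspores, the immature pollen grains. The 3 day 0 libraries are of untreated microspores. The heat-only cultures spent 24 hours at 33 °C and were then moved to 25 °C, for 1 day in the 3 day 2 libraries and for 3 days in the 3 day 4 libraries. The TSA cultures had TSA in the medium during the same heat stress, after which it was removed, with 3 libraries at day 2, 3 at day 4 and 2 at day 8, which had 7 days at 25 °C. TSA was given at 0.5 µM in the day 2 cultures and at 0.05 µM in those of day 8. For the day 4 cultures the labels disagree, with 0.5 µM in the titles but 0.05 µM under treatment. If it was 0.05 µM, dose and day cannot be told apart between the TSA cultures of day 2 and day 4. The same then holds between the TSA effects of those days. If it was 0.5 µM, dose and day cannot be told apart in TSA day 8 against TSA day 4. The labels describe heat alone as the treatment for embryos and heat with TSA as the treatment for callus, and the series design calls the replicates biological. There is no heat-only culture at day 8 and no culture kept without heat, and each library is a whole culture, described by the labels after treatment as microspores with embryogenic cells. In such a bulk sample, fewer cells of a type and less RNA per cell cannot be told apart. The labels name 1 sequencing run for the day 0, TSA day 2 and TSA day 8 libraries and none for the others. Libraries with and without a named run are thus set against each other in the day 2 effect of TSA, in the change from day 2 to day 4 with TSA, in TSA day 8 against TSA day 4, and in day 0 against either heat-only group or TSA day 4. In those comparisons run and treatment or day cannot be told apart. TSA day 2 and TSA day 8 against day 0 lie within the named run, and the day 4 effect of TSA and the change with heat alone lie among libraries without a named run.

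TSA blocks histone deacetylases, the enzymes that take acetyl groups off histones. Acetylated histones are found mainly at transcribed chromatin, so the drug is used to ask which genes these enzymes hold down. Microspores of B. napus are a classic system for haploid embryogenesis: heat turns some of them from pollen development to division and embryo formation, and TSA is known to increase the proportion that divide. B. napus is an allotetraploid with an A and a C subgenome, and most of its genes have a near-identical copy in the other, so the level of any single copy is uncertain where reads could be split. The gene IDs carry no functional names here. The reference table listed 3 of the 61 members, BnaA02g36920D, BnaC02g04430D and BnaC04g39640D, each as protein coding and under no other name. Members are therefore described by their levels, and neither their roles nor cell type markers could be given.

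The shallowest library, day 0 replicate 3, held 2716279 counts and the deepest 31407037. The median member had between 18 and 45 counts in the heat-only day 4 libraries, 43 in day 0 replicate 3 and at least 82 in every other library. Counts under 3 occurred for 11 members in at least 1 of the 12 libraries of day 2 and day 4. In the heat-only day 4 libraries the 100 most abundant genes took 36.5% to 37.0% of all counts, against 20.5% to 27.2% in heat-only day 2, 9.74% to 10.9% in TSA day 2 and 12.7% to 14.7% in TSA day 4. How this share bears on the members' levels was not tested. What other scalings of the libraries give is stated further on.

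The median level of the members was lowest in heat-only cultures at day 4. It was nearly the same in untreated microspores as in heat-only cultures at day 2, although single members differed between those groups in both directions, by -3.57 to 5.75 log2 units. The median member mean was 3.43 log2 CPM at day 0, 3.64 in heat-only day 2, 1.66 in heat-only day 4, 2.43 in TSA day 2, 2.68 in TSA day 4 and 3.36 in TSA day 8. The same medians over the 34482 genes that reached the minimum were 3.06, 3.42, 3.52, 3.35, 3.45 and 3.23, without a low point at heat-only day 4. Library by library, the median member stood at 3.41, 3.78 and 3.75 in heat-only day 2 and at 1.86, 1.46 and 2.07 in heat-only day 4. It stood at 2.28, 2.54 and 2.29 in TSA day 2 and at 2.72, 2.72 and 2.58 in TSA day 4. At day 0 it was 3.44, 3.50 and 3.42, and in TSA day 8 it was 3.54 and 3.21. No heat-only library overlapped the TSA libraries of its day in this median, while the 6 TSA libraries of day 2 and day 4 all lay between the heat-only libraries of both days.

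**Figure D1:**
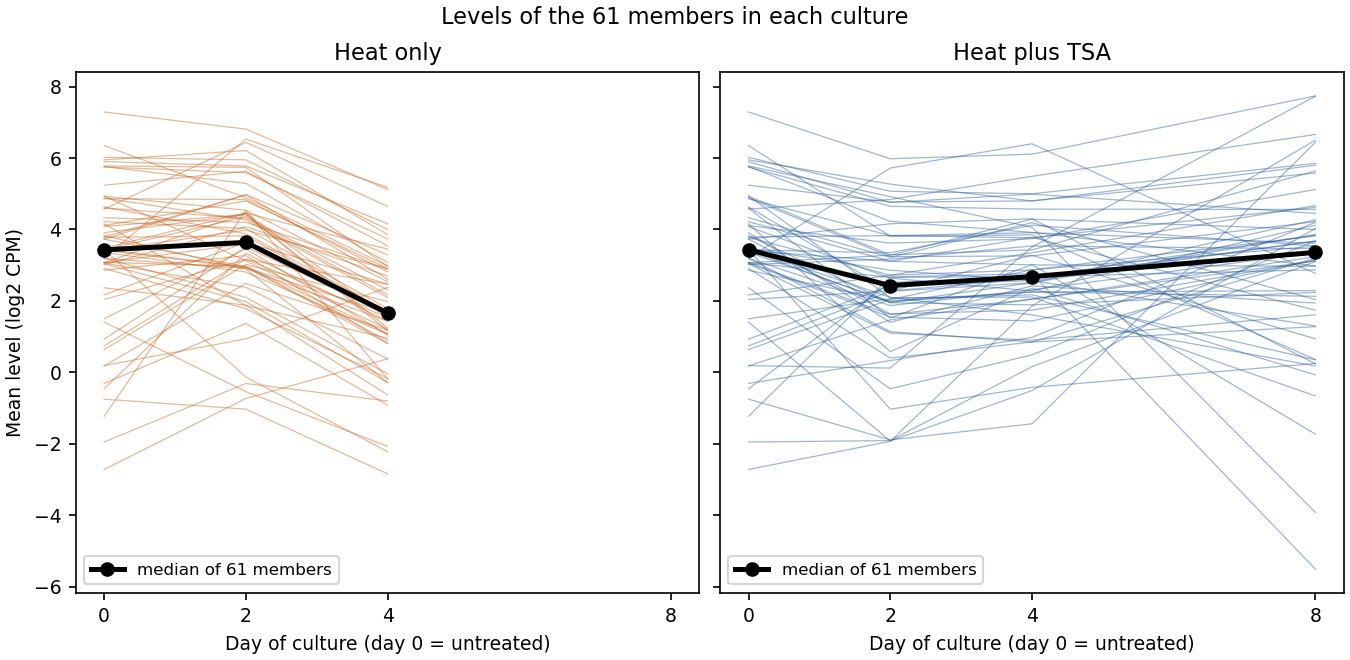
Mean log2 CPM of each of the 61 genes (thin lines) and their median (thick line) by day of culture, in heat-only cultures and in heat plus TSA cultures, both starting from day 0. The median goes from 3.64 to 1.66 between day 2 and day 4 of heat alone and from 2.43 to 2.68 with TSA.

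The median difference between TSA and heat alone was -1.02 log2 units at day 2, with a range from -3.02 to -0.81, and 1.00 at day 4, with a range from 0.80 to 2.94. Over all genes that reached the minimum, the medians were -0.05 and 0.24. The difference between both effects had a median of 2.03 in the members and a range from 1.66 to 4.80. The libraries themselves were apart in most members: all 3 TSA libraries lay below all 3 heat-only libraries at day 2 in 55 members, and above them at day 4 in 53. Over the 34482 genes this held in 41.2% at day 2 and 44.5% at day 4, and since the same libraries chose the members nothing is read from the counts. Both separations held in 50 members, a count given without a share over all genes, and nothing is read from it either.

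**Figure D2:**
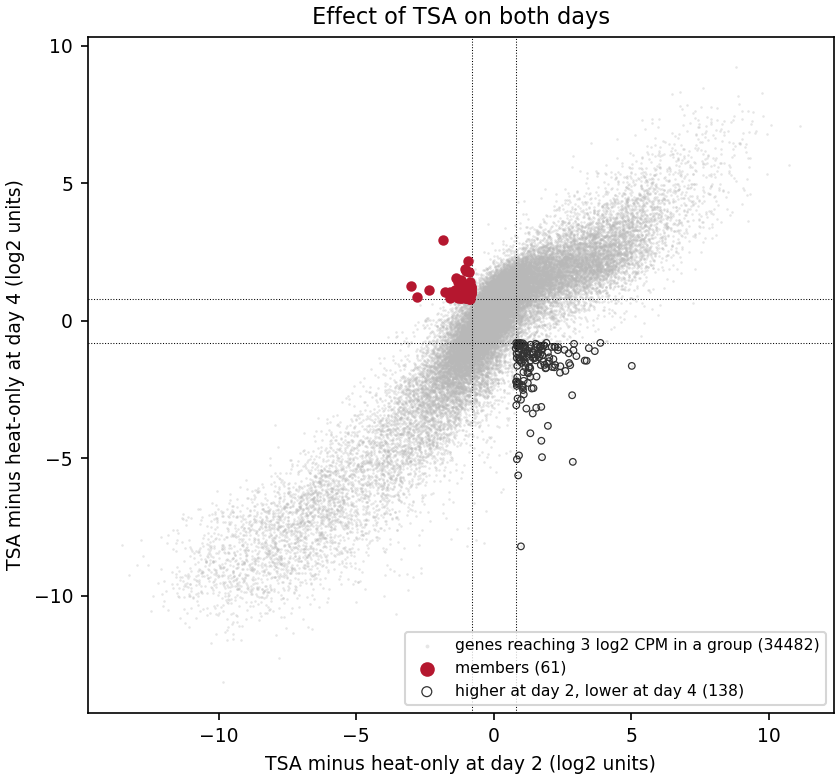
Difference between TSA and heat alone at day 2 (x axis) and at day 4 (y axis), in log2 CPM, for the genes that reached 3 log2 CPM, with the 61 members in red and the 138 genes of opposite order as open circles. Dotted lines mark -0.8 and 0.8. Members fill the corner at or below -0.8 on the x axis and at or above 0.8 on the y axis, and most lie near that corner's inner edges.

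The difference between the TSA effects of both days is the same quantity as the difference between the day 4 minus day 2 change with TSA and that with heat alone, so each member can be split into these parts. Between day 2 and day 4 of heat alone the median member was lower by 1.91 log2 units (median change -1.91, from -4.71 to 1.44), where the median over all genes was 0.13. Between the same days with TSA, across libraries with and without a named run, the median change was 0.23, from -0.86 to 3.79, with 0.05 over all genes. The heat-only change was at or below -0.8 in 57 members, against 18.8% of the genes that reached the minimum, and the TSA change was at or above 0.8 in 12, against 10.98%. The heat-only decrease made up more than 50% of the difference in 55 members. In 49 members there was a decrease of at least 0.8 with heat alone but no increase of that size with TSA, in 8 there were both, and in 4 there was only the increase with TSA. The rule itself forces every member to show the decrease, the increase or both. The counts above and their distance from the shares over all genes are therefore a description and support nothing. For the 138 genes of opposite order the thresholds force the reverse. Their median change was 2.73 with heat alone, at least 0.8 in 134 of them, and -0.43 with TSA. The TSA change was at or below -0.8 in 51 of them and at or above 0.8 in 10.

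**Figure D3:**
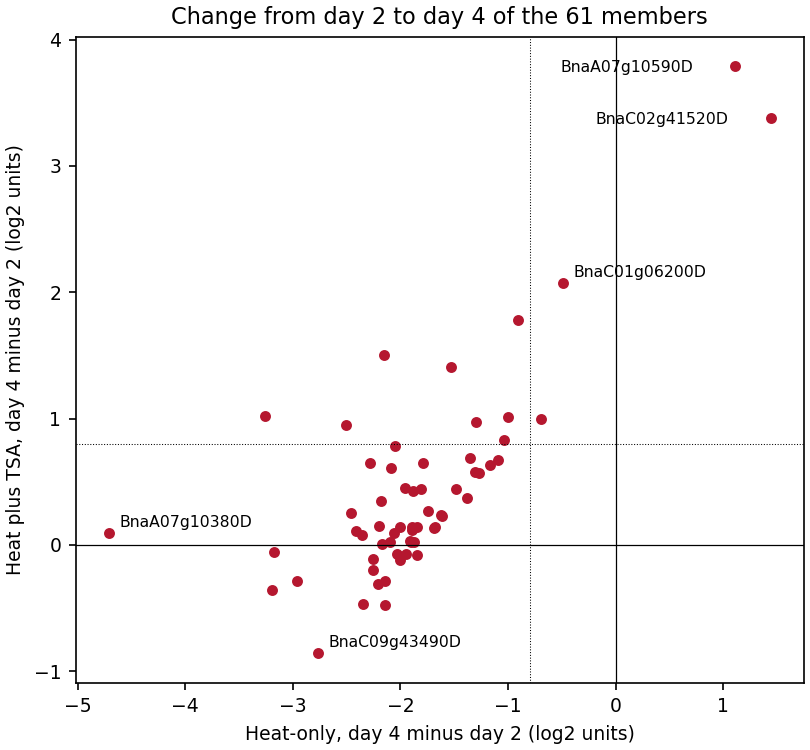
Change from day 2 to day 4 in log2 CPM for each member, in heat-only cultures (x axis) and in TSA cultures (y axis). Dotted lines mark a decrease of 0.8 with heat alone and an increase of 0.8 with TSA. In 49 members only the decrease was reached, in 8 both were and in 4 only the increase. By the rule each member had to reach the decrease, the increase or both.

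Of the 4 day 2 and day 4 groups, heat-only day 2 was highest in 55 members and heat-only day 4 lowest in 54, and both TSA means lay between them in 53. By the rule, only heat-only day 2 or TSA day 4 could be the highest of these groups. Only heat-only day 4 or TSA day 2 could be the lowest, so this order is a description. With day 0 and day 8 included, the highest of the 6 means was at TSA day 8 in 22 members, day 0 in 21, heat-only day 2 in 17 and TSA day 4 in 1. In 20 members the minimum level was met only at day 0, day 8 or both, so their highest mean had to be there. These counts are thus a description and support nothing. The lowest was at heat-only day 4 in 36 members, TSA day 8 in 14, day 0 in 10 and TSA day 2 in 1. The spread between replicates was widest at heat-only day 4, where the median SD of a member was 0.46 log2 units (n = 3). It was between 0.16 and 0.24 in the other groups. Replicate 2 of that group was the lowest of its 3 libraries for 33 members, replicate 1 for 24 and replicate 3 for 4.

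Ranked by the smaller of its TSA effects in size, the first member was BnaA07g10380D. Its level was 4.21, 4.70 and 4.67 log2 CPM in heat-only day 2 and 2.05, 2.54 and 3.42 in TSA day 2. At day 4 it was -1.18, -0.05 and 0.69 with heat alone, on 2, 6 and 17 counts, and 2.71, 2.88 and 2.70 with TSA. The groups did not overlap on either day. With TSA its mean was 2.67 ± 0.69 (SD, n = 3) at day 2 and 2.76 ± 0.10 (SD, n = 3) at day 4, while with heat alone the change was -4.71. At day 0 it had 46, 18 and 0 counts.

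BnaA03g02570D, BnaA06g30890D, BnaA09g38430D and BnaA09g12040D had the same form, with a heat-only change from -2.46 to -2.20 and a TSA change of 0.08 to 0.25. BnaA03g02570D stood at 3.03, 3.58 and 3.20 in heat-only day 2 and at 0.20, 0.89 and 1.35 in heat-only day 4, and all 6 TSA libraries of these days were between 1.96 and 2.37. BnaA09g12040D stood at 3.98, 3.64 and 3.83 and then at 1.46, 1.53 and 1.87 with heat alone, and between 2.63 and 3.00 in the TSA libraries. In these genes the TSA cultures of both days were close to each other, and the heat-only cultures lay above them on the first day and below them on the second. BnaA06g30890D was more variable, with 2.98, 1.67 and 3.19 in heat-only day 4 against 4.01, 4.13 and 3.59 in TSA day 4. BnaA09g38430D was at 3.13, 3.66 and 3.58 in heat-only day 2, at 0.90, 1.00 and 1.24 in heat-only day 4, and between 1.95 and 2.31 in the TSA libraries.

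In 8 members the TSA level was also higher at day 4 than at day 2 by at least 0.8. BnaC03g38780D had the lowest day 2 difference of all members, -3.02, from 4.18, 4.67 and 4.41 with heat alone to 1.25, 1.39 and 1.55 with TSA. At day 4 it was at 0.59, 0.77 and 2.13 with heat alone and at 2.23, 2.56 and 2.47 with TSA. The heat-only replicate 3 of day 4 thus lay just under the lowest TSA library. BnaC07g27370D was at 4.07, 4.46 and 4.43 against 1.60, 2.10 and 0.86 with TSA at day 2, and at 1.86, 1.97 and 2.68 against 3.20, 2.82 and 3.04 at day 4. BnaA04g25890D was at 1.23, 2.25 and 2.16 against -0.73, -0.33 and -0.32 at day 2. At day 4 its libraries overlapped, with -1.91, -0.58 and 0.61 for heat alone and 0.52, 0.19 and 0.76 with TSA.

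BnaC03g45180D and BnaC03g38020D reached their effects at lower levels. BnaC03g45180D was at 1.71, 2.00 and 1.90 in heat-only day 2, and its TSA libraries of that day were at 1.60, 1.13 and -0.99, so replicate 3 set most of the difference. At day 4 it was at 0.75, 1.20 and 0.92 with heat alone and at 2.43, 2.56 and 2.08 with TSA. BnaC03g38020D was at or below 0.04 log2 CPM in all 12 of these libraries and passed the minimum level only through TSA day 8, where it was at 3.85 and 4.20. The other 3 members of this class, BnaA08g04950D, BnaC04g22150D and BnaC08g41180D, had no overlap between the groups on either day.

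The 4 members with an increase of at least 0.8 with TSA and no such decrease with heat alone were BnaA05g35460D, BnaA07g10590D, BnaC01g06200D and BnaC02g41520D. BnaA07g10590D was at -0.27, -0.93 and -0.99 in heat-only day 2 and at 0.59, -0.29 and 0.85 in heat-only day 4. With TSA it was at -1.49, -0.82 and -3.49 at day 2, on 11, 17 and 1 counts, and at 1.24, 2.26 and 2.07 at day 4. Its heat-only level was thus higher at day 4 than at day 2, by 1.11, and its day 2 libraries overlapped. BnaC02g41520D also had a higher heat-only level at day 4, by 1.44, and its libraries overlapped on both days. It was at 0.59, 3.59 and 2.95 in heat-only day 4 and at 4.13, 3.81 and 2.58 in TSA day 4. At day 2 its TSA libraries were at 0.91, 1.37 and -1.91, the last on 4 counts, against 0.88, 0.79 and 1.14 with heat alone. Replicates 1 and 2 with TSA lay within or above the heat-only range of that day, so its day 2 difference rests on replicate 3.

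BnaA05g35460D was the most precise of these 4. It was at 3.18, 3.15 and 3.16 in heat-only day 2 and at 2.15, 2.22 and 2.47 in TSA day 2. At day 4 it was at 2.34, 2.75 and 2.33 with heat alone and at 3.25, 3.61 and 2.97 with TSA. Its groups did not overlap on either day, and the heat-only and TSA levels changed places. BnaC01g06200D was at -1.34, 0.14 and 0.27 against -1.92, -1.55 and -2.27 with TSA at day 2. At day 4 it was at -1.91, -0.58 and 0.09 against 0.52, -0.07 and 0.03, with overlap.

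**Figure D4:**
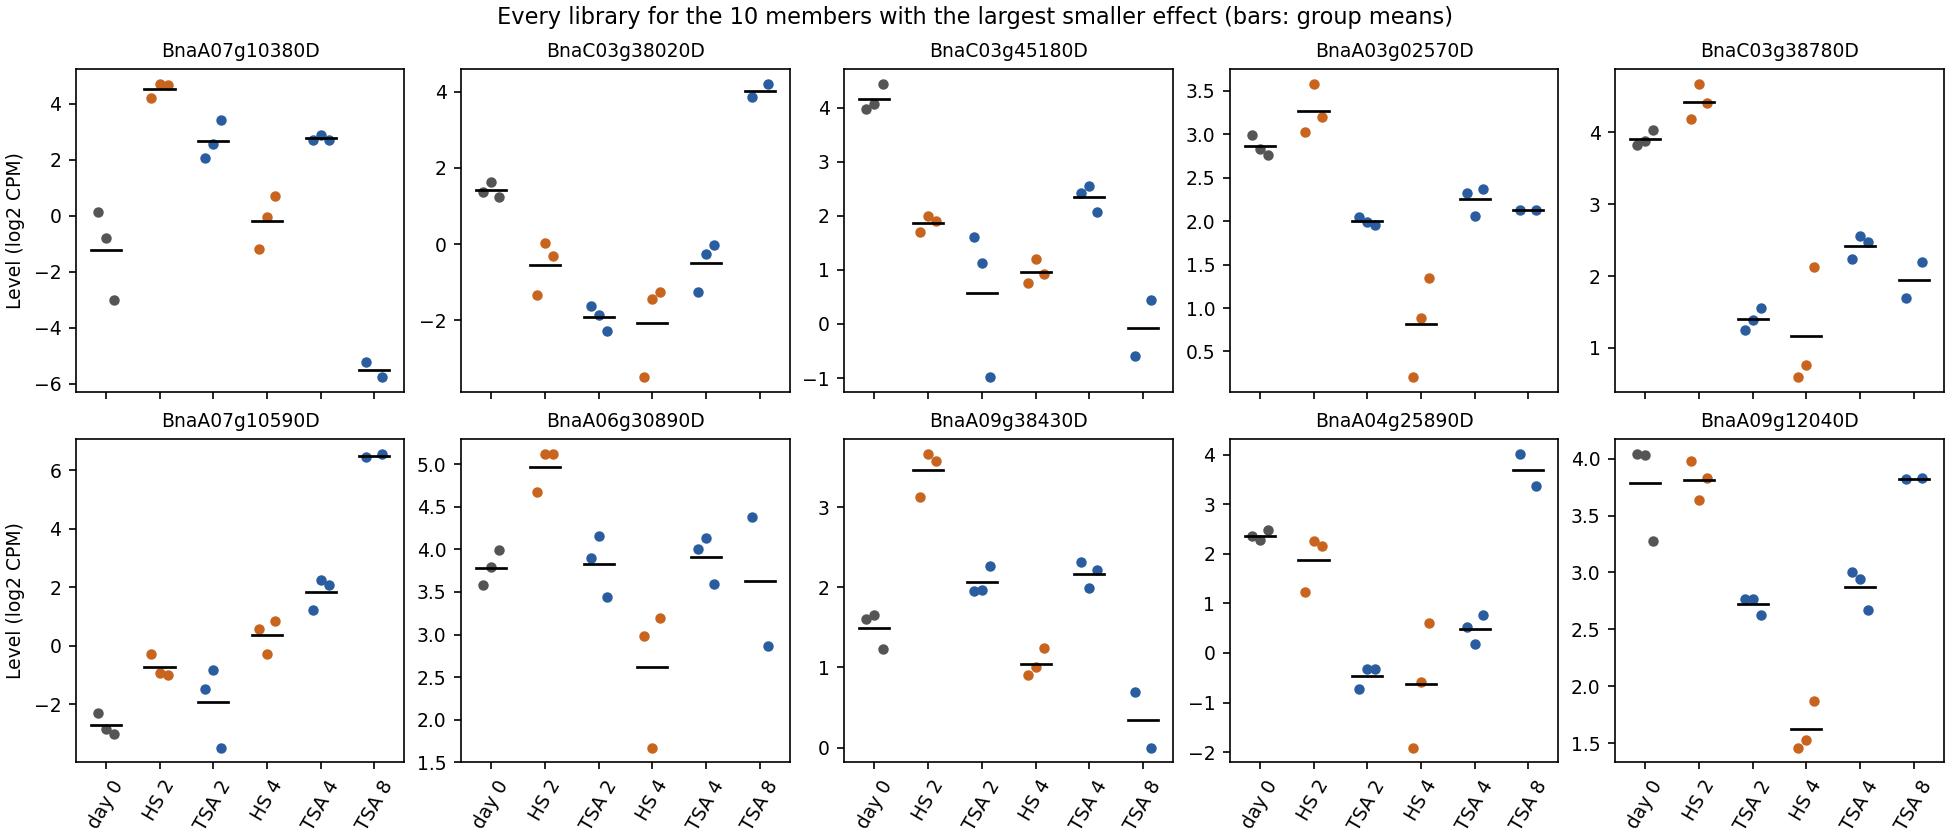
log2 CPM in each of the 17 libraries (points) for the 10 members whose smaller TSA effect was largest, with group means as bars. HS is heat alone, TSA is heat with TSA, and the number is the day. In BnaA03g02570D the 6 TSA libraries of day 2 and day 4 lie between 1.96 and 2.37, below the heat-only libraries of day 2 and above those of day 4.

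The 5 members with the highest mean level over the 6 groups were BnaC03g26080D, BnaA05g22260D, BnaCnng38460D, BnaC05g41380D and BnaA07g19180D. Counting error is smallest there, and in all 5 the libraries of both days were apart. BnaC03g26080D was at 6.83, 6.81 and 6.79 in heat-only day 2, 6.05, 5.85 and 6.04 in TSA day 2, 5.16, 4.79 and 5.42 in heat-only day 4 and 5.98, 6.10 and 6.25 in TSA day 4. It was highest at TSA day 8, at 7.85 and 7.64, and at day 0, at 7.30, 7.18 and 7.40. BnaC05g41380D was at 5.67, 6.11 and 6.07 and then at 4.13, 3.56 and 4.30 with heat alone, while its TSA libraries ran from 4.91 to 5.15 on both days. BnaA05g22260D was at 6.02, 6.66 and 6.64 in heat-only day 2 against 4.86, 4.61 and 5.04 with TSA. At day 4 it was at 5.14, 3.98 and 4.84 against 5.45, 5.18 and 5.83, so the nearest libraries were almost level. The change with heat alone was -2.35 in BnaCnng38460D and -1.61 in BnaA07g19180D, and the change with TSA was -0.47 and 0.23.

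The quasi-likelihood test of edgeR was run on the raw counts of 64330 genes, among them all 61 members, with Benjamini-Hochberg adjustment and a call at an adjusted p under 0.05. For the contrasts that chose the members its calls only describe how precisely they were measured. For 52 members it called both effects, the lower level at day 2 and the higher one at day 4, a pattern called in 1.57% of all genes. The other 9 were BnaA01g16410D, BnaA02g19780D, BnaA04g25890D, BnaA05g22630D, BnaA07g10590D, BnaC01g06200D, BnaC02g41520D, BnaC07g11380D and BnaC08g20340D. Heat-only day 4 was called below heat-only day 2 in 57 members, with 23.2% of all genes called so, and TSA day 4 above TSA day 2 in 11, with 4.04%. In the authors' deposited table, at a false discovery rate under 0.05, 57 members had the lower level with TSA at day 2, 46 the higher one at day 4 and 45 both, and 55 were lower at day 4 than at day 2 of heat alone. The authors' values come from the same libraries that chose the members. Their counts are given without shares over all genes and support nothing.

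Set against day 0, the members stood furthest below it in heat-only day 4. The median difference from day 0 was -0.01 log2 units in heat-only day 2, -1.06 in TSA day 2, -2.01 in heat-only day 4 and -0.91 in TSA day 4. Over the genes that reached the minimum, the medians in the same order were 0.34, 0.14, 0.48 and 0.24. These comparisons share the day 0 libraries, use the day 2 or day 4 libraries that chose the members and, except for TSA day 2, cross the line of the named run. In 7 members the minimum level was met only at day 0, and in 5 only at day 0 and day 8. Those members had to lie below day 0 in every group of day 2 and day 4. The calls against day 0 and their distance from the shares over all genes are therefore a description and support nothing. Heat-only day 2 was called below day 0 in 19 members and above it in 23, where 25.3% and 31.1% of all genes were called. Heat-only day 4 was called below day 0 in 46 members and above it in 5, with 32.6% and 35.5% of all genes. TSA day 2 was called below day 0 in 41 and above it in 7, with 28.7% and 32.9%. TSA day 4 was called below it in 38 and above it in 16, with 29.9% and 36.1%. TSA day 8 was called above TSA day 4 in 31 members and below it in 15, with 23.4% and 35.0% of all genes. The median difference in log2 CPM was 0.71, across the line of the named run, with -0.31 over the genes that reached the minimum. In 8 members the minimum was met only at day 8, and in 5 only at day 0 and day 8. Those members had to be higher in TSA day 8 than in TSA day 4. The calls, the median and their distance from the values over all genes are therefore a description and support nothing.

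TSA day 8 against day 0 is the comparison in which no day 2 or day 4 level is compared, although its test took the spread from all 17 libraries. The minimum level, however, could be met by day 0 or day 8 itself: 7 members passed it only through day 0, 8 only through day 8 and 5 only through both. These 20 members had 7 calls higher and 8 lower at day 8 and support nothing. The other 41 had a mean of at least 3 in a heat-only or TSA group of day 2 or day 4. Of these, 9 rose and 18 fell from day 0 to day 8, and 14 were not called. Among the 30671 tested genes with such a mean, 27.8% were called higher and 32.5% lower. The median log2 fold change was -0.34 in the 41 members and -0.08 in those genes. Over all 61 members 16 were called higher and 26 lower, with 29.0% and 29.2% called over all genes, and 43 had an unadjusted p under 0.05. The median was -0.24 over the 61, with 0.00 over all genes. The calls among the 41 come to 21.95% higher and 43.9% lower. The members thus went in both directions by day 8, and their difference from the background shares was not tested.

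**Figure D5:**
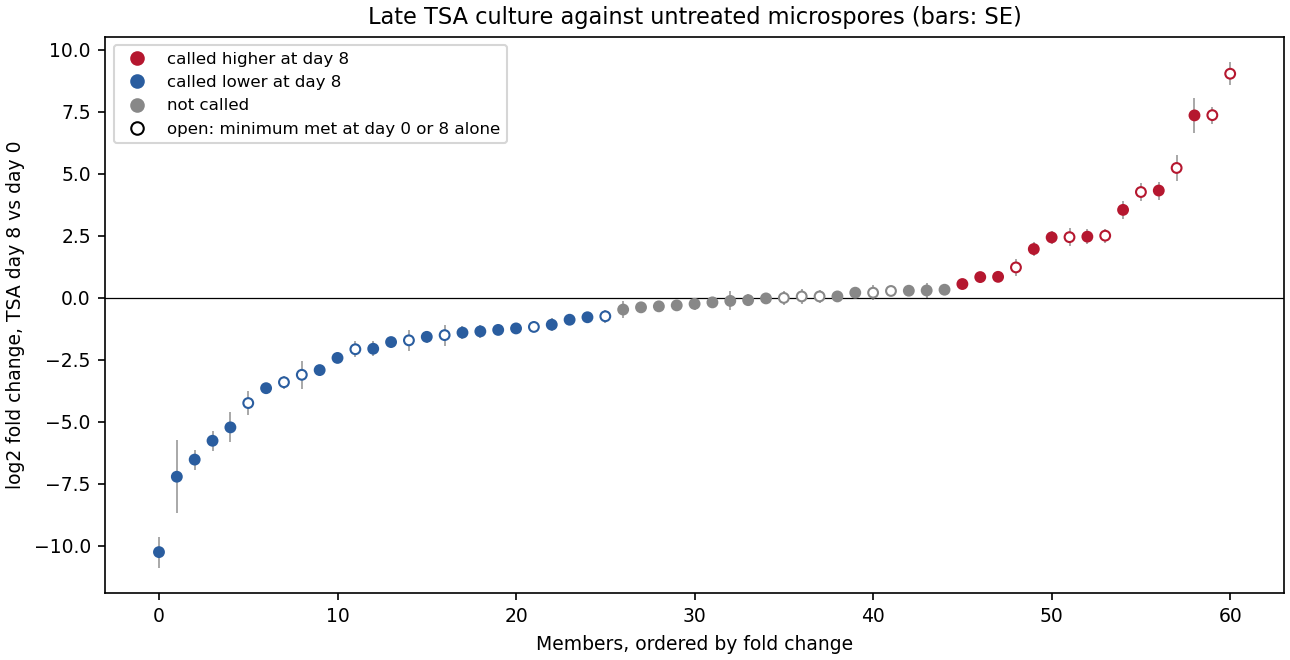
edgeR log2 fold change of TSA day 8 against day 0 for each member, with its standard error, coloured by call. Open points met the minimum level only at day 0 or day 8, and for BnaA07g10380D, at 0 counts at day 8, the fitted value is no bound. The 16 called higher and 26 called lower span -10.25 to 9.04, and the 19 not called lie between -0.47 and 0.33.

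Among the 41 members that passed the minimum at day 2 or day 4, the 9 called higher had a median of 2.17 log2 CPM at day 0 and 4.67 at TSA day 8. The 18 called lower had 4.46 and 1.84, and the 14 without a call 3.78 and 3.76. The calls were made on these same levels, so the medians only describe the classes. In heat-only day 2, heat-only day 4, TSA day 2 and TSA day 4 the medians were 3.64, 2.47, 2.72 and 3.43 for those called higher and 4.30, 2.32, 3.11 and 3.27 for those called lower. Over all 61 members the fold changes of the 19 without a call had standard errors of 0.18 to 0.39.

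Among the members called higher with the lowest p, BnaA03g39830D passed the minimum without day 8. It was at -0.29, -1.25 and 0.15 log2 CPM at day 0 and at 3.52 and 4.15 at TSA day 8, a log2 fold change of 4.33 ± 0.36 (SE) with an edgeR adjusted p of 3.00e-08. It had already been between 2.16 and 2.80 in the TSA libraries of day 2 and day 4. BnaC02g41520D, named above, was at 0.54, -0.12 and 0.15 at day 0 and at 7.84 and 7.62 at day 8, with a log2 fold change of 7.36 ± 0.71 (SE) and an edgeR adjusted p of 3.22e-07. BnaA05g22260D rose by 1.97 ± 0.30 (SE), edgeR adjusted p 2.63e-05, from 4.60, 4.58 and 4.52 to 6.91 and 6.40. In these genes no day 0 library reached the level of a day 8 library.

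The other 4 of the 5 members called higher with the lowest p passed the minimum only through day 8, so their change is a description. BnaA07g10590D was at -2.31, -2.84 and -3.02 at day 0, on 8, 4 and 0 counts, and at 6.45 and 6.56 at day 8, on 1642 and 2601 counts. BnaA05g22630D was at -1.45, -0.96 and 0.15 and then at 6.42 and 6.46. Its place among the members rests on few counts, since it had 0, 1 and 1 counts in heat-only day 4 against 7, 10 and 9 in TSA day 4. That is a ratio of 3.89 with an exact 95% interval, for counting error only, from 0.975 to 33.8. BnaC08g44330D was at -0.06, -0.17 and -0.70 and then at 4.42 and 3.99, and BnaC01g06200D at -2.49, -1.92 and -1.44 and then at 3.60 and 2.60.

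Of the members that fell to day 8, BnaC09g43490D was at 5.74, 5.78 and 5.81 log2 CPM at day 0 and had 1 count in each day 8 library, after 3.94, 4.28 and 3.97 in TSA day 4. With 4245 counts at day 0 and 2 at day 8, the ratio of pooled levels is 1250 with an exact 95% interval from 347 to 10300, for counting error only. BnaC07g27370D fell by 6.52 ± 0.40 (SE), edgeR adjusted p 9.25e-10, from 4.49, 4.57 and 4.73 to -1.77 and -1.69. BnaC04g56010D fell by 5.76 ± 0.40 (SE), edgeR adjusted p 2.84e-09, from 4.71, 4.83 and 5.27 to -0.59 and -0.74. BnaA02g05900D fell by 3.64 ± 0.21 (SE), edgeR adjusted p 3.78e-10, from 3.64, 3.71 and 3.85 to 0.32 and 0.15, although all 6 TSA libraries of day 2 and day 4 had been between 4.09 and 4.43.

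BnaA01g03290D, which passed the minimum only through day 0, was at 3.44, 3.50 and 3.42 there and at -0.02 and 0.37 at day 8. BnaA07g10380D had no count in either day 8 library. Against the level that 3 counts stand for in the shallower of them, 0.159 CPM, its day 0 mean of 0.55 CPM was 3.45-fold higher. That mean rests on 46, 18 and 0 counts, and the ratio allows for no error at day 0, so it is no bound. The levels of BnaC09g43490D and BnaA07g10380D at day 8 were at or under what the depth resolves.

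BnaC03g38780D fell by 2.05 ± 0.30 (SE) to day 8, edgeR adjusted p 1.72e-05, BnaA07g19180D by 1.57 ± 0.24 (SE), edgeR adjusted p 2.32e-05, and BnaA09g38430D by 1.35 ± 0.27 (SE), edgeR adjusted p 4.06e-04. BnaA03g02570D fell by 0.88 ± 0.23 (SE), edgeR adjusted p 3.58e-03. BnaC03g26080D, BnaCnng38460D, BnaC05g41380D, BnaA06g30890D and BnaA09g12040D were not called, with log2 fold changes from -0.30 to 0.33. BnaA06g30890D differed between its day 8 libraries, at 4.38 and 2.87. Of the 3 members listed in the reference table, BnaC02g04430D fell by 1.78 ± 0.22 (SE), edgeR adjusted p 3.20e-06. BnaA02g36920D was not called, with -0.02 ± 0.23 (SE). BnaC04g39640D passed the minimum only through day 8, where it was at 3.03 and 3.22 against 0.61, 0.62 and -0.70 at day 0.

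Many members lay close to the thresholds. Within 0.1 log2 units of the day 2 threshold there were 17 members, and 19 genes that met the other conditions lay just outside it. For the day 4 threshold these numbers were 21 and 17, and for the minimum level 1 and 2. Just inside the day 2 threshold were BnaC03g10290D and BnaA03g39830D, both at -0.81, and just outside it BnaA07g21090D at -0.79 and BnaC06g33890D at -0.78. At day 4 BnaA01g03290D and BnaA05g35460D were just inside at 0.80, and BnaC05g44660D and BnaC01g39030D just outside at 0.79. By level, BnaA02g19780D, at 3.04 in its highest group, and BnaC01g06200D, at 3.10, were just inside, and BnaC09g47400D, at 2.95, and BnaC07g14640D, at 2.93, just outside.

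The number of genes that met the rule depended on how the libraries were scaled. The trimmed mean of M-values (TMM) over the filtered genes gave 107 genes, with 60 of the 61 members among them. RLE factors gave 31 with 29 members, upper-quartile factors 60 with 45, and library totals 216 with 12. Heat-only day 4 was below heat-only day 2 in 59 members under each of these scalings, and the sign of both TSA effects held in all 61. The median heat-only change of the members was between -2.70 and -1.75. The scalings moved the median day 4 effect over all genes that reached the minimum from 0.24 to between 0.02 and 1.55, and their heat-only change from 0.13 to between -0.80 and 0.27. A scaling shifts all genes of a library alike and the rule used these levels, so the signs that held under the scalings are a description and support nothing. The TSA change from day 2 to day 4 was above 0 in 47 members on the authors' values and in 31 with library totals.

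By their IDs, 26 members lay on the A subgenome and 35 on the C subgenome, or 42.6% and 57.4%, where the genes that reached the minimum were at 49.1% and 50.7%. They were spread over 17 of the 19 chromosomes, with none on A10 and C06. No pair had neighbouring IDs, and the closest, BnaA07g10380D and BnaA07g10590D, had 20 IDs between them and went opposite ways by day 8.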

How the data were processed

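Raw counts per gene were deposited for 17 libraries, per the file headers, with the authors' log2 CPM values for the genes they kept and a table of their log2 fold changes and false discovery rates (adjusted p-values). Per the labels' protocols, DNase-treated RNA was made into TruSeq libraries, and limma is named in the submitters' processing notes. The sources used here give no aligner, counting program, strand setting or build. The log2 CPM values match log2 of CPM after adding 0.5 to each count, with TMM factors over all gene IDs. That was found from the values, and is no statement of the authors.

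Columns were matched to samples by title, and 0 columns were left unused. Members were found from group means of log2 CPM. The members, the gene lists and the tests were chosen with earlier results of these data known. The test was edgeR 4.0.16 in R 4.3.3 on counts: filterByExpr, TMM, robust quasi-likelihood, 1 coefficient per group over 17 libraries, two-sided, Benjamini-Hochberg over 64330 genes. It was also run on simulated counts in which all genes shared the same spread and only a small set changed, at day 8. These data differ from that setting, so the simulation does not give the error rates here. An SE is the absolute log2 fold change divided by the square root of F. P-values cover the spread between these libraries. Counting intervals and the floor of 3 counts cover counting error only.

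Genes were named by rule: the 10 members whose smaller TSA effect was largest, the 5 highest by mean level, the 5 of lowest p in each direction at day 8 against day 0, those next to a threshold, and members with another name in the reference, of which there were none. Members named beyond these were chosen after their values were seen. The planned gene lists and cell type markers could not be applied, since only 3347 of 101040 IDs, 12381 of them with no counts, matched the reference (assembly Da-Ae). No sequence was used here. Alternatives were other scalings, filters, thresholds, single libraries left out, a replicate block, DESeq2 1.42.0 and limma 3.58.1.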

Additional observations from a re-analysis of the deposited data

How the results depend on the processing

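The number of genes meeting the rule was 376 at 0.5 log2 units and 16 at 1 log2 unit, 123 with a minimum of 1 and 202 with no minimum. With TMM after filtering it was 107, with RLE factors 31 and with library totals 216, and leaving out 1 library gave 46 (without HS day 4 replicate 2) to 86 (without HS day 2 replicate 1). For TSA day 8 against day 0, calls ran from 39 to 44 when 1 library was left out and from 41 to 44 under the other scalings, no filter, the 5 libraries alone, DESeq2 or limma. The median of -0.24 became -0.37 with library totals, -0.13 with TMM over all gene IDs and -0.13 with no filter, and -0.39 to -0.26 with 1 library left out. Restricting to members with the minimum met at day 2 or 4, an alternative chosen after seeing the data, gave 27 calls, 9 of them higher. Without members under 10 counts, also chosen later, there were 40. With 1 library left at day 8, that library is assumed to vary like those of the other groups. Members called in both directions with TSA were 22 with library totals and 42 to 52 otherwise. Of the 5 named genes without a call, the only uncalled ones run singly under the alternatives, the sign turned for BnaA06g30890D (0.04 with RLE factors, 0.03 with TMM over all gene IDs, 0.03 with no filter, 0.02 with DESeq2, and -1.0 to 0.43 with a library left out, the highest without TSA day 8 replicate 2), BnaCnng38460D (-0.59 to 0.04, the highest without TSA day 8 replicate 1) and BnaA09g12040D (0.04 with limma). The cause was not tested. BnaA04g25890D lost its call without TSA day 8 replicate 1, and BnaC03g26080D gained one at 0.45 with DESeq2, limma and TMM over all gene IDs. Same-numbered libraries correlated by -0.123 to 0.498 in their deviations from group means. Between day 2 and day 4 these values were 0.295, 0.08 and 0.227 with heat alone and 0.276, 0.079 and 0.498 with TSA. Differently numbered libraries of the same arms and days ran from -0.481 to 0.435. Deviations within so small a group depend on each other, so whether the numbers pair the samples stays undecided. With a replicate block there were 42 calls, 16 of them higher, a median of -0.22 and 52 members called in both directions. Depth limits the 22 members with under 10 counts in a library of day 2 or day 4.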
